A study of Mus musculus with 5 samples.

Results

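The 106 genes described here belong to the subunit series of the 5 oxidative phosphorylation complexes: 93 annotated entries in the nucleus and 13 in the mitochondrial genome. They were all the entries, among 78334 annotated features, whose symbols belong to the Nduf subunit series, Sdha to Sdhd, the Uqcr series, Cox4 to Cox8, the Atp5 series or the mitochondrial Nd, Co, Atp and Cytb genes, without pseudogene symbols. The nuclear entries carried 92 symbols, since Atp5po was listed under 2 identifiers, and they divided into 41 of complex I, 4 of complex II, 8 of complex III, 21 of complex IV and 19 of complex V. The mitochondrial genes divided into 7, 0, 1, 3 and 2. A few symbols of these series are not structural subunits: Atp5if1 encodes an inhibitor, Cox7a2l a protein that joins complexes, and Ndufb4c is annotated as a processed pseudogene on GRCm38. RNA had been counted in 5 droplet libraries from the dentate gyrus of mice, the part of the hippocampus where cortical input arrives, and each group had 10 mice and 1 library.

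The first part of the study held dissociated cells of wild-type mice. CFC-14d mice were taken 14 days after contextual fear conditioning, a training that pairs a chamber with foot shocks, and Random-14d mice 14 days after random foot shocks. The second part held nuclei from frozen tissue. WT-naive mice were wild type and untrained, WT-CFC mice were wild type and taken 14 days after the same conditioning, and KO-CFC mice were trained in the same way and carried a knockout that one label gives as Csf2rb2 and another as Csf2rb3. Csf2rb2 encodes a receptor chain for interleukin 3, the signal named in the title of the study. Csf2rb2 was still counted in all libraries, at 3.53 and 3.83 CPM (counts of a gene in 1000000 UMIs of the library or class) in CFC-14d and Random-14d and at 14.4, 17.6 and 9.67 CPM in WT-naive, WT-CFC and KO-CFC. A 3′ count does not show which part of a gene was removed, and the last library is therefore called the library labelled KO-CFC. It stood apart in other genes too: Xist, which is transcribed from the inactive X chromosome of females, was at 641 CPM there against 2.94 in WT-naive and 1.81 in WT-CFC, the Y-linked Eif2s3y was at 15.9 against 102 and 106 CPM, and the immunoglobulin light chain Igkc had 17511 counts against 0 and 1. Their part in the results below was not tested.

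Oxidative phosphorylation moves electrons from NADH and succinate through complexes I and II to complex III and then to complex IV, which reduces oxygen. Complexes I, III and IV pump protons across the inner mitochondrial membrane, and complex V uses their return to make ATP. The core subunits of complexes I, III, IV and V are made partly from the mitochondrial genome, whose messages are cut from long transcripts that also hold the ribosomal RNAs, while all subunits of complex II are nuclear. In brain, neurons are known for a high demand for this ATP, and the mitochondrial messages do not belong to the nucleus.

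The libraries held 8395 to 32827 barcodes and 38045642 to 126937815 unique molecular identifiers (UMIs, each taken as 1 captured RNA molecule). The nuclear members took 4.57% and 4.07% of the UMIs in CFC-14d and Random-14d, and 0.425% (naive), 0.496% (trained) and 0.719% (labelled KO-CFC) in the nuclei. The mitochondrial members took 1.31%, 1.07%, 0.211%, 0.215% and 0.203%. Of the 93 nuclear entries, 86, 86, 80, 82 and 82 reached 100 counts in these libraries, and 3 (Ndufa11b, Ndufb4c and Ndufs6b) were at 0 in all 5. Ttr, the transthyretin made by choroid plexus, supplied 21.2% and 20.5% of the UMIs in the cell libraries and haemoglobin 5.34% and 10.7%, so that RNA of choroid plexus was counted in every cell class. CFC-14d and Random-14d shared 282 barcodes, 0.859% of those in CFC-14d, and the pairs of nuclei libraries shared 25 to 32. Since a group had 1 library, no difference between groups could be tested, and every interval below is a 95% interval that covers counting error only.

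The start regions of some subunits and of their alternative forms differed in CpG content. RefSeq windows of 250 bases before to 50 bases after the start site, on GRCm38.p6, were available for 56 of the 93 nuclear entries. Cox4i1, Cox4i2, Ndufa4l2 and Cox6a2 had none, and complex V had 1. The median number of CpG dinucleotides in the 250 bases upstream was 14 in these members and 6 in all 27025 genes with a window. Cox8a and Cox8b encode the same small complex IV subunit, Cox8b being the form known from heart and skeletal muscle; Cox7a2 and Cox7a1 stand in the same relation. Their upstream 250 bases are given 5′ to 3′ in the direction of transcription, with CpG dinucleotides in capitals, because the forms of each subunit differed in this feature and in their counts.
Cox8a: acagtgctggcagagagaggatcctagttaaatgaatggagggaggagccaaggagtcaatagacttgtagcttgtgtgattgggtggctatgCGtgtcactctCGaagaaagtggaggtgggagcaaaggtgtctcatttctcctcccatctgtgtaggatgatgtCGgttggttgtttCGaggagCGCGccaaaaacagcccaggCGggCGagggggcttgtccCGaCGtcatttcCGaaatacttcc
Cox8b: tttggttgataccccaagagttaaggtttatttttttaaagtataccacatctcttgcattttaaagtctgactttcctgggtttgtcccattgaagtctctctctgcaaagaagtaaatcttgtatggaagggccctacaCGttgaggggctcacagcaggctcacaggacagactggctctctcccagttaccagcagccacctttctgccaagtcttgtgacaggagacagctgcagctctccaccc
Cox7a2: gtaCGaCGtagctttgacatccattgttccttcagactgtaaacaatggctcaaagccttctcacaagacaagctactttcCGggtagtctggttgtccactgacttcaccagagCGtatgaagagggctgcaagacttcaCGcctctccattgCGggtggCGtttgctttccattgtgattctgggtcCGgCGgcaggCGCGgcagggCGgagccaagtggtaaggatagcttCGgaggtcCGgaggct
Cox7a1: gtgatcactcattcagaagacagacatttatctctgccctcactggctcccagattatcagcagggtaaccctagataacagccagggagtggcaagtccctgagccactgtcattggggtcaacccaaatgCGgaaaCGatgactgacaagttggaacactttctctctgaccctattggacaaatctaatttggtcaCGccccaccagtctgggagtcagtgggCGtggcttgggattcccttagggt
Cox8a lies at chr19:7217617-7217866 on the minus strand and holds 11 CpG, and Cox8b at chr7:140900447-140900696 on the minus strand holds 1. Cox7a2 lies at chr9:79759854-79760103 on the minus strand and holds 14, and Cox7a1 at chr7:30183921-30184170 on the plus strand holds 4. Another pair, Cox6b1 and Cox6b2, held 14 and 8, both above the median of all genes. All coordinates refer to these upstream windows, not to the gene bodies.

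Motifs of factors known to act on respiratory genes were counted as exact letters on both strands of the 300-base windows, with a gene counted once per motif. GCGCATGCG overlaps its own reverse complement, so 1 stretch can match on both strands. GCGCATGCG, a core of the NRF1 site, was in 5 of the 56 members (8.93%) and in 1.95% of all genes. AAGATGGCG, a YY1 motif, was in 5 (8.93%) against 1.64%, and all 5 of these encode complex I subunits, as do 33 of the 56 members with a window. CCGGAAGT, bound by ETS factors, was in 4 (7.14%) against 4.31%, and TCAAGGTCA, bound by the ERR nuclear receptors, in 1 (1.79%) against 0.466%. Any of the 4 was in 14 (25%) against 7.93%. In the following 2 upstream sequences the NRF1 motif is in capitals. They are shown because Cox6a1 and Ndufa8 were at least 1.5-fold higher in granule neurons labelled KO-CFC than in those of WT-CFC. So were 62.0% of all nuclear members tested there, against 15% of all genes. Uqcrc1, Uqcr11 and Ndufa11 held the motif too and are not shown.
Cox6a1: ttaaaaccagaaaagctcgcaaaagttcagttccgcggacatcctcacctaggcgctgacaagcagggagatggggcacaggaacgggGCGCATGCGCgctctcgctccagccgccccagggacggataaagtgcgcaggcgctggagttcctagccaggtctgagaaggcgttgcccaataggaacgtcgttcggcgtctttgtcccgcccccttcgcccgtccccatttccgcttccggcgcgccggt
Ndufa8: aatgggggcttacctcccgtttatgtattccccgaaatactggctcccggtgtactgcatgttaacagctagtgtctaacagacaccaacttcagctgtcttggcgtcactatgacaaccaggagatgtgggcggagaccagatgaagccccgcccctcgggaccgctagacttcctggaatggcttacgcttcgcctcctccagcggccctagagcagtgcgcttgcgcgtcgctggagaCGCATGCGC
They lie at chr5:115348959-115349208 and chr2:36049339-36049588, both on the minus strand. A match of letters describes these windows and was not tied to any difference in counts.

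Barcodes were grouped into classes by the marker genes of each cell type, and a class name below means cells or nuclei that resemble that type. Among the 17 classes of dissociated cells, the summed nuclear members were highest in platelets and choroid plexus epithelium and lowest in erythroid cells and microglia. Platelets were at 65031 CPM in CFC-14d and 68405 in Random-14d, and choroid plexus epithelium at 62845 and 63766. Proliferating progenitors followed at 46806 and 42699 CPM and astrocytes at 42084 and 44666. Microglia, the resident macrophages of brain, were at 17963 and 16162 CPM, so that astrocytes, which take up transmitter and supply neurons, lay well above them in both libraries. Erythroid cells were at 4735 and 3712 CPM, with haemoglobin as 87.3% and 88.4% of their UMIs. The endothelium, at 23509 and 22733 CPM, lay below the pericytes that wrap it, at 35895 and 34207.

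**Figure D1:**
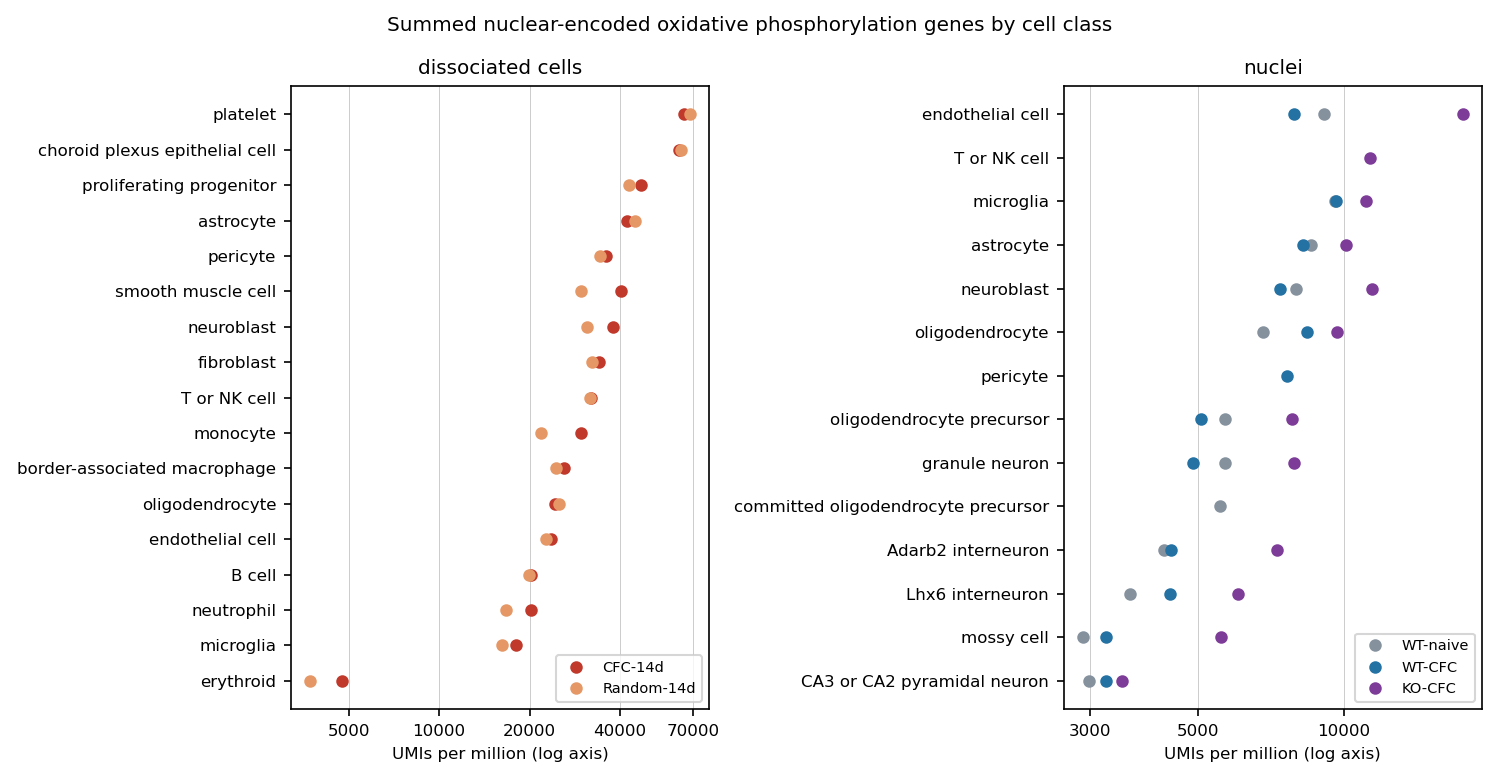
Summed nuclear members in CPM on a log axis, by cell class, with 1 point per library; classes with at least 50 barcodes are shown. Dissociated cells run from erythroid cells at 3712 to platelets at 68405, and nuclei from mossy cells at 2901 to endothelium of the library labelled KO-CFC at 17565.

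This order moved with choroid plexus RNA. Ttr was at 331704 and 380569 CPM in choroid plexus epithelium, 182155 and 236749 in platelets, 81298 and 96822 in astrocytes and 31419 and 26665 in microglia. Over the 17 classes of a library, the Spearman correlation of the nuclear sum with Ttr was 0.92 and 0.89, a description of points that share 1 library. With choroid plexus RNA subtracted in proportion to Ttr, a step added after the data were seen, microglia were at 13255 and 12568 CPM, astrocytes at 35266 and 38067 and oligodendrocytes at 21990 and 22828. Pericytes went to 23833 and 22108 CPM and progenitors to 33719 and 33501. Astrocytes stayed above oligodendrocytes and these above microglia. The astrocyte class joined clusters 7 and 31, which differed. Before subtraction cluster 7 was at 52299 and 54273 CPM, with Ttr at 112285 and 133189. Cluster 31 was at 24358 and 25567 CPM, with Ttr at 27528 and 24521, and lay near oligodendrocytes at 24276 and 25127. Platelets, which lost 54.2% and 61.4% of their UMIs by this step, went to 66633 and 74475, and erythroid cells to 2219 and 1592. The platelet barcodes still had Cox8b as 6.76% and 6.91% of Cox8a plus Cox8b. The medians over the 16 classes without choroid plexus epithelium were 2.60% and 1.53%. Prr32, a leading gene of choroid plexus clusters, was among their leading genes. Whether choroid plexus RNA remained in the platelet sums was not tested.

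In nuclei, the sums were lower and the order was different. Mossy cells, the excitatory neurons of the hilus, were at 2901, 3237 and 5575 CPM in WT-naive, WT-CFC and KO-CFC. CA3 or CA2 pyramidal neurons were at 2990, 3236 and 3493 CPM, and granule neurons, the principal cells of the dentate gyrus, at 5679, 4898 and 7874. Microglia were at 9563, 9615 and 11077 CPM and astrocytes at 8570, 8253 and 10098. Oligodendrocytes were at 6814, 8386 and 9661 CPM, so with all barcodes these 3 glial classes lay above the granule, mossy and pyramidal neurons in all 3 libraries. Classes with few UMIs per nucleus tended to have higher sums: median UMIs were 11562, 13699 and 8520 in mossy cells and 1199, 1361 and 1140 in microglia. Over 12 classes per library the Spearman correlation with median UMIs was -0.94, -0.90 and -0.83, and with the share of cytosolic ribosomal protein RNA 0.94, 0.84 and 0.97. In nuclei of 2000 to 4000 UMIs, a window added after the data were seen, granule neurons were at 6505, 5973 and 7966 CPM and astrocytes at 7211, 7846 and 10177. Oligodendrocytes were at 6313, 7918 and 8870 CPM there, so in WT-naive they lay below granule neurons. CA3 or CA2 neurons, with 50 such nuclei in the wild-type libraries alone, were at 4724 (naive) and 4634 (trained), the opposite order to that of all barcodes. The part of cytoplasmic RNA was not tested.

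The split among complexes varied less than the sums. In the cell classes complex I supplied the largest part of the nuclear UMIs in oligodendrocytes, 35.8% and 36.7%, and in choroid plexus epithelium it supplied 29.1% and 29.5%. Genes whose level over the classes most resembled the nuclear sum were chosen among 10941 genes in the cells. They were Elof1 and Ooep (Spearman 0.97 each), Mrps6 (0.97), Col9a3 and Tpi1 (0.96 each), over 17 classes of CFC-14d and Random-14d. In nuclei, among 11167 genes and 11 classes, they were Tomm7, Mrps18c and Timm13 (1 each) and Naxe and Chchd2 (0.99 each). The summed mitochondrial members gave 0.70 in cells and 0.19 in nuclei.

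Mitochondrial messages formed a larger share in cells than in nuclei, and their order was not that of the nuclear members. With all barcodes, astrocytes had the highest share in cells, 2.46% in CFC-14d and 1.98% in Random-14d, with median UMIs of 768.5 and 834. Platelets followed at 2.16% and 1.57%, pericytes were at 1.63% and 1.39%, microglia at 1.08% and 0.918%, and erythroid cells at 0.382% and 0.302%. Within the astrocyte class, cluster 7 was at 3.16% and 2.44% and cluster 31 at 1.24% and 1.06%. The lead of astrocytes did not hold in every setting. In barcodes of 2000 to 4000 UMIs astrocytes were at 1.27% and 1.19%, below choroid plexus epithelium at 1.69% and 1.45%, and platelets were at 1.65% and 1.12%. After the subtraction by Ttr platelets were at 3.08% and 2.10% and astrocytes at 2.81% and 2.23%. In nuclei, where mitochondrial messages are not made, interneurons marked by Lhx6 had 0.328%, 0.402% and 0.358% in WT-naive, WT-CFC and KO-CFC, against 0.206%, 0.172% and 0.201% in granule neurons and 0.104%, 0.119% and 0.0832% in CA3 or CA2 neurons. The endothelium of the library labelled KO-CFC had 0.531%, the highest share in nuclei.

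**Figure D2:**
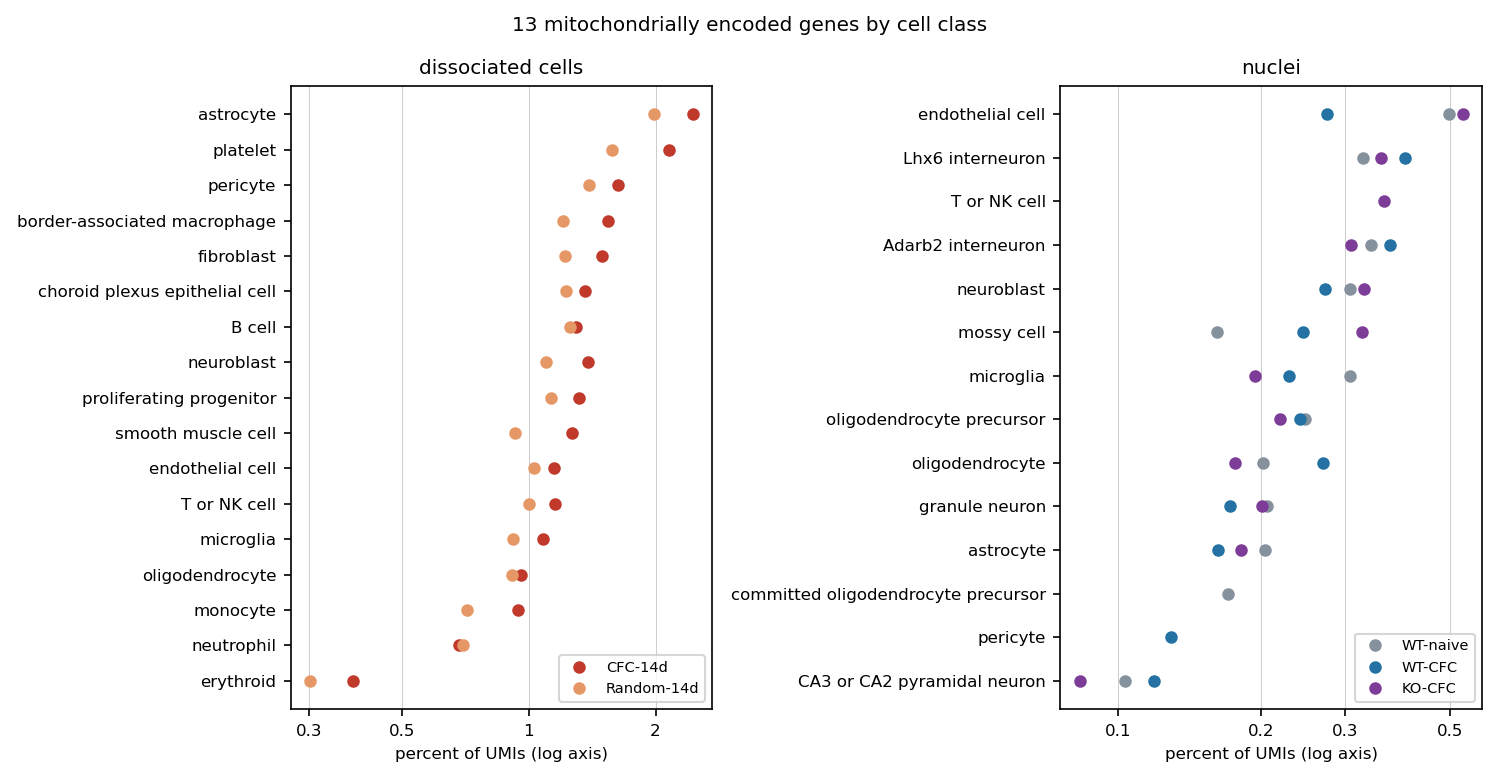
Share of UMIs from the 13 mitochondrially encoded members on a log axis, by cell class, with 1 point per library. With all barcodes astrocytes lead the dissociated cells at 2.46% and 1.98%, a lead they lose to choroid plexus epithelium at 2000 to 4000 UMIs, and CA3 or CA2 neurons are lowest in the nuclei, at 0.0832% to 0.119%.

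Not all 13 genes can be counted with the same certainty. The mouse nuclear genome holds annotated copies of mitochondrial DNA, and reads that fit both places can be lost or split. On the GRCm38 transcripts, copies of at least 98% identity covered 99.6% of mt-Co2 (Gm28661), 99.6% of mt-Atp6 (Gm10925), 99.9% of mt-Co3 (Gm28437), 99.1% of mt-Nd3 (Gm28438) and 99% of mt-Nd4l (Gm10222). They covered 63.6% of mt-Nd4 and 31.3% of mt-Co1, and none of the other 6. The 5 genes that are copied nearly whole supplied 4.34% and 4.85% of mitochondrial member UMIs in CFC-14d and Random-14d but 14.8%, 11.1% and 8.29% in WT-naive, WT-CFC and KO-CFC. They are kept apart below as the copied genes, and the other 8 are called the remaining mitochondrial genes. Among nuclear members, 31 of the 87 found in the reference had such a copy of at least 100 bases.

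Levels of the copied genes were low for messages that are abundant in most tissues. In CFC-14d and Random-14d, mt-Co2 was at 142 and 129 CPM and mt-Co3 at 159 and 136, while mt-Cytb, the only mitochondrial subunit of complex III, was at 3756 and 3159. In WT-naive, WT-CFC and KO-CFC mt-Co3 was at 66.1, 28.5 and 28.9 CPM and mt-Cytb at 509, 518 and 627. mt-Nd3, a complex I subunit, was at 6.30 and 3.27 CPM in cells and at 18.5, 109 and 34.1 in nuclei. These values give what the authors' counting assigned to each gene, not how much of each message was present.

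Several subunits exist in alternative forms, and 2 of these marked the wall of vessels. Cox4i2, a form of a complex IV subunit known from lung and from low oxygen, made up 22.4% of Cox4i1 plus Cox4i2 UMIs in pericytes of CFC-14d (interval 21.2 to 23.6, 1078 of 4820) and 24.2% in Random-14d (23.1 to 25.3, 1450 of 5995). In smooth muscle cells it was 3.91% and 10.9%, and the median over the 17 classes was 0.354% and 0.389%. Ndufa4l2, the relative of Ndufa4 induced by hypoxia factors, showed the same classes: 49.7% (48.2 to 51.1) and 54.1% (52.8 to 55.3) of Ndufa4 plus Ndufa4l2 in pericytes, and 11.4% and 30.3% in smooth muscle. In choroid plexus epithelium Cox4i2 was 0.0958% and 0.0525% and Ndufa4l2 0.225% and 0.0849%.

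These shares were larger once choroid plexus RNA was subtracted. With choroid plexus RNA taken out in proportion to Ttr, Cox4i2 was 41.7% and 43.2% of its pair in pericytes and Ndufa4l2 88.1% and 96.0%. In nuclei, pericytes reached 50 barcodes in WT-CFC alone, with 7 counts of Cox4i2 and 16 of Ndufa4l2. Endothelial nuclei of the library labelled KO-CFC had Cox4i2 as 9.0% of its pair (19 of 211) and Ndufa4l2 as 19.4% (34 of 175). Pericytes were also the class with the highest level of both genes: Ndufa4l2 was at 926 and 1050 CPM and Cox4i2 at 441 and 485 in CFC-14d and Random-14d.

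**Figure D3:**
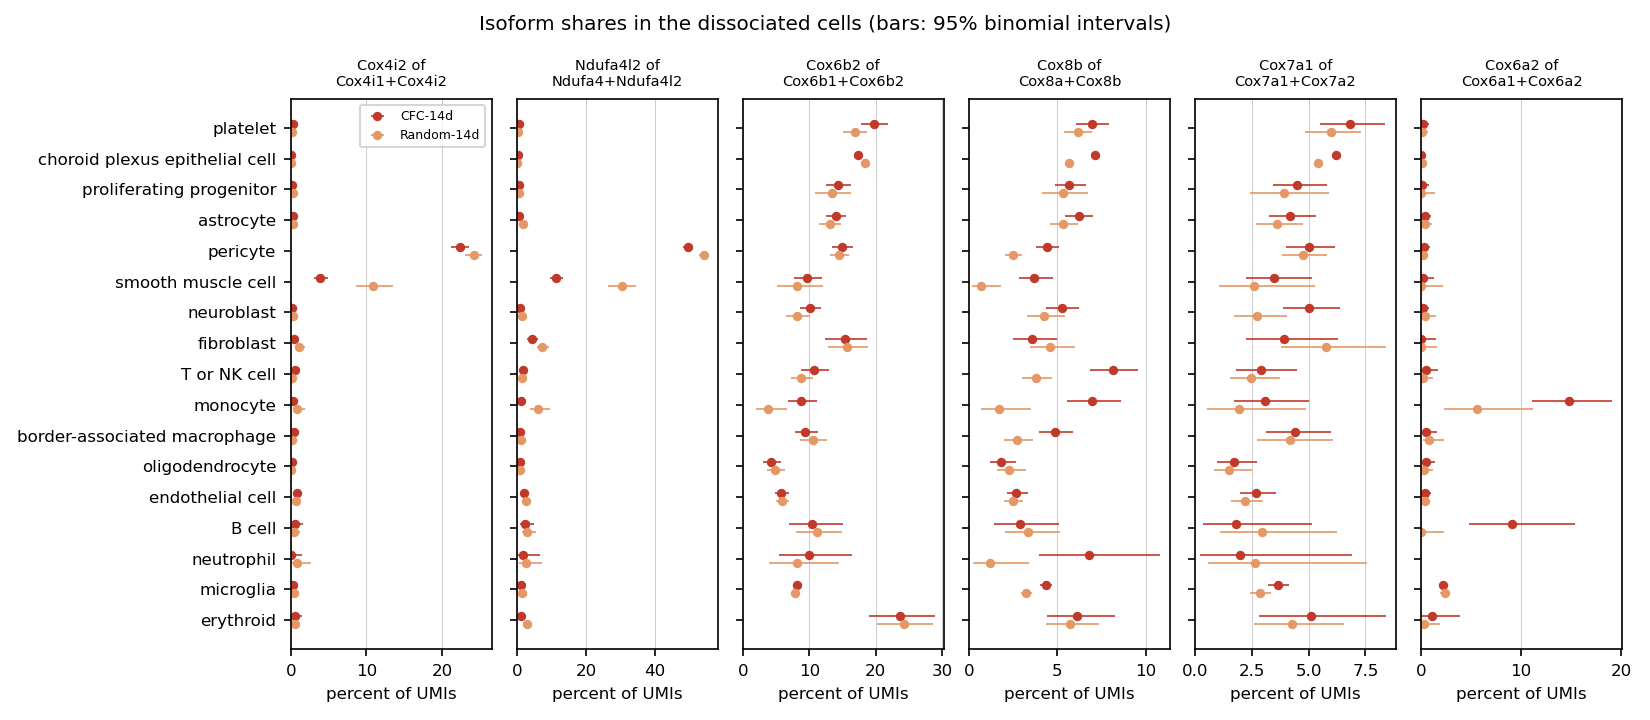
Share of the alternative form in the summed UMIs of its pair, in percent, for 6 pairs over the classes of dissociated cells, with 95% binomial intervals. Cox4i2 and Ndufa4l2 are high in pericytes, at 22.4% and 49.7% in CFC-14d, whereas Cox6b2, Cox8b and Cox7a1 spread over most classes and Cox6a2 is highest in monocytes of CFC-14d at 14.8%.

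The forms known from muscle and testis were spread over most cell classes. Cox6b2, known from testis, was 17.3% and 18.4% of Cox6b1 plus Cox6b2 in choroid plexus epithelium. Cox8b was 7.12% and 5.66% of its pair there and Cox7a1 6.18% and 5.42%, whereas Cox6a2, also a muscle form, was 0.0402% and 0.05%. Over the 17 classes the medians were 10.5% and 10.5% for Cox6b2, 5.25% and 3.35% for Cox8b and 3.93% and 2.93% for Cox7a1. After subtraction by Ttr, choroid plexus epithelium and classes under 100 counts of a pair were left out. The medians were then 4.24% and 6.79% for Cox6b2 over 15 classes and 2.60% and 1.53% for Cox8b over 16. For Cox7a1 they were 1.99% and 1.78% over 15. Cox6b2 was highest in erythroid cells after this step, at 32.3% (41 of 127) and 35.6% (52 of 146).

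Nuclei, which held little Ttr, gave these forms another distribution. Cox6b2 was 10.4% (19 of 182), 18.0% (44 of 245) and 16.4% (35 of 214) of its pair in astrocyte nuclei of WT-naive, WT-CFC and KO-CFC. In granule neurons it was 0 of 448, which allows up to 0.670%, 0 of 450, which allows up to 0.667%, and 6 of 871. Cox8b had 5, 0 and 3 counts in the whole libraries. Cox6a2 made up 5.67%, 4.32% and 8.87% of its pair in interneurons marked by Adarb2, and 1.07%, 0.909% and 2.06% in granule neurons. In the cells it was 14.8% (48 of 325) and 5.60% (7 of 125) in monocytes and 2.23% and 2.35% in microglia.

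Subunit c of ATP synthase is made from 3 genes whose mature proteins are the same. Atp5mc1 supplied 67.8% to 77.3% of their UMIs over the classes of CFC-14d and 60.8% to 75.7% in Random-14d, and 45.9% to 61.0%, 43.4% to 54.7% and 37.6% to 66.5% in the nuclei of WT-naive, WT-CFC and KO-CFC. Atp5mc2 supplied at most 1.40% in CFC-14d and 0.740% in Random-14d, and 4.59% to 18.2% in nuclei. The entries of Atp5po, a peripheral stalk subunit, differed likewise: ENSMUSG00000022956 was at 586 and 538 CPM in cells and 34.95, 37.2 and 58.1 in nuclei, and ENSMUSG00000116933 at 2.54 and 2.06 CPM in cells and 189, 158 and 156 in nuclei. On the GRCm38 transcripts, near-identical stretches of other entries covered 100% of ENSMUSG00000116933 and 48.8% of ENSMUSG00000022956. For the first, the longest was 287 bases of the gene Donson. Which message the counts of ENSMUSG00000116933 came from was not tested.

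Other subunits varied less between classes. In CFC-14d the largest ratios of the top class to the median class after those of Ndufa4l2 (104 times) and Cox4i2 (79.0 times) were Cox6a2 in monocytes (53.5 CPM, 27.4 times the median class taken at 3 counts) and the low Atp5po entry in astrocytes (18.9 CPM, 7.63 times). Then came Cox7a1 in platelets (90.4 CPM, 4.26 times), Cox6b2 in platelets (310 CPM, 3.72 times) and Cox8b in choroid plexus epithelium (224 CPM, 3.23 times). Sdhc, a membrane anchor of complex II, reached 360 CPM in platelets (2.84 times), and Ndufa4 2645 CPM in choroid plexus epithelium (2.82 times). These platelet barcodes held Ttr at 182155 CPM. In WT-CFC nuclei Ndufa7 (161 CPM, 2.95 times) and Uqcrfs1, the iron-sulfur subunit of complex III (53.8 CPM, 2.67 times), were highest in endothelium, and Atp5mk in microglia (181 CPM, 2.45 times). These genes were picked by this ratio, which is a description.

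The first comparison asked how conditioned mice differed from mice given random shocks. The remaining mitochondrial genes were somewhat higher in CFC-14d in every class compared, and the nuclear members did not share one direction. The median log2 ratio of the remaining mitochondrial genes was above 0 in 15 of 15 classes, from 0.10 in B cells to 0.48 in platelets. That of the nuclear members was above 0 in 11 of 15, from -0.08 in platelets to 0.42 in monocytes. A ratio here is of CPM values, with 0.5 counts added, for genes with at least 100 counts over both libraries, and a gene is called apart when the ratio was at least 1.5-fold. Of the 17 classes with a mitochondrial share in both libraries, 16 had a higher share in CFC-14d, and neutrophils had 0.682% against 0.697%.

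In microglia, 70 of 84 nuclear members were higher in CFC-14d. Their median log2 ratio was 0.13, against 0.02 for all genes and 0.11 for 79 cytosolic ribosomal protein genes, of which 70 were higher. By complex, 8 of 8 complex III genes and 16 of 18 complex IV genes were higher, and 2 of 4 of complex II. Only 2 nuclear members were at least 1.5-fold apart, and 1.87% of all genes were. Both were muscle forms: Cox7a1 was at 11.7 CPM in CFC-14d and 7.33 in Random-14d (log2 0.68, 0.38 to 0.99) and Cox8b at 30.8 and 20.0 (0.62, 0.44 to 0.81). The lowest was Cox4i2, at -0.25. Ttr was higher in CFC-14d microglia too, at 31419 and 26665 CPM. After subtraction by Ttr, Cox8b had 185 counts in 17521971 UMIs of CFC-14d and 152 in 19300870 of Random-14d. Cox7a1 had 82 and 54 counts, so both muscle forms stayed higher in CFC-14d, from fewer counts.

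The mitochondrial genes of microglia were each higher in CFC-14d. mt-Nd1, a core subunit of complex I, was at 1605 CPM in CFC-14d and 1306 in Random-14d (log2 0.30, 0.27 to 0.32). mt-Co1, the catalytic subunit of complex IV, was at 1791 and 1501 CPM (0.25, 0.23 to 0.28) and mt-Cytb at 3151 and 2784 (0.18, 0.16 to 0.20). The 13 genes ran from mt-Atp6 at 0.04 to mt-Nd3 at 0.65, the latter past 1.5-fold, from 97 and 66 counts. Ribosomal RNAs of the mitochondrion were higher as well, with a median of 0.17. Other mitochondrial lists did not stand in 1 direction: 29 of 78 mitochondrial ribosomal protein genes were higher (median -0.02), 9 of 15 genes of the citric acid cycle (0.11) and 8 of 16 complex I assembly factors (0.01). In barcodes of 2000 to 4000 UMIs, a window added after the data were seen, 52.4% of nuclear members were higher, and 60.8% of all genes.

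Choroid plexus epithelium had the most counts, and the result for its nuclear members depended on the setting. The values here are with all barcodes. Of 85 tested, 40 were higher in CFC-14d, with a median log2 ratio of -0.0046, while the median of all genes was 0.19. Against that shift, the nuclear members lay 0.19 lower in CFC-14d. The cytosolic ribosomal proteins (75 of 78 higher, median 0.16) and the 8 remaining mitochondrial genes (8 of 8, median 0.19) lay close to it. Complex I leaned lowest, with 12 of 36 higher. Only 2 nuclear members were at least 1.5-fold apart, against 11.8% of all genes. They were Ndufa4l2, at 5.97 and 2.49 CPM (log2 1.26, 0.97 to 1.56), and Cox4i2, at 2.86 and 1.60 (0.83, 0.45 to 1.23).

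Neither of these held in the bulk of the epithelium. Cluster 2 of the choroid cells held 3857 CFC-14d barcodes and 284 of Random-14d, and cluster 28 held 438 and 11. Without them Ndufa4l2 was at -0.03 and Cox4i2 at -0.33. Median UMIs were 1908 and 4175 in the whole class. In cluster 2 the nuclear sum was 43259 and 49517 CPM, below that of the class. The lowest member was Atp5mc3, at 744 and 931 CPM (-0.32, -0.34 to -0.30), one of the genes of subunit c. With barcodes weighted equally, 5.88% of nuclear members were higher in CFC-14d, and with scaling by the median ratio 12.9%.

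Astrocytes, the class named in the title of the study, showed the genomes apart. Of 80 nuclear members 23 were higher in CFC-14d, with a median of -0.08 against 0.00 for all genes, and 0 were at least 1.5-fold apart against 2.25% of all genes. Cox4i1 was at 2017 CPM in CFC-14d and 2218 in Random-14d (-0.14, -0.20 to -0.07). All 8 remaining mitochondrial genes were higher, with a median of 0.33. mt-Nd4 was at 4133 and 3080 CPM (0.42, 0.37 to 0.48) and mt-Nd1 at 4272 and 3413 (0.32, 0.27 to 0.37). Ttr was lower in CFC-14d astrocytes, at 81298 against 96822 CPM. With a stricter limit on the mitochondrial share of a barcode 70% of nuclear members were higher, and in barcodes of 2000 to 4000 UMIs 57.3%, where all genes had 54.4%.

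Vascular classes moved little. In the endothelium 48 of 80 nuclear members were higher in CFC-14d (median 0.04) and 0 were at least 1.5-fold apart, against 2.21% of all genes. The 8 remaining mitochondrial genes had a median of 0.18 there and 0.28 in pericytes. In pericytes 52 of 82 nuclear members were higher (median 0.06) and 1 was at least 1.5-fold apart, against 1.47% of all genes: Cox8b, at 74.1 and 37.4 CPM (0.98, 0.64 to 1.34). After subtraction of choroid plexus RNA by Ttr, only 13 counts of Cox8b were left in CFC-14d pericytes and 0 in Random-14d. Cox4i2 (-0.14, -0.25 to -0.02) and Ndufa4l2 (-0.18, -0.26 to -0.10), the forms that mark pericytes, were slightly lower in CFC-14d.

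In neuroblasts 72 of 78 nuclear members were higher (median 0.29, all genes -0.04) and 3 were at least 1.5-fold apart, against 6.62% of all genes. Ndufa1, a complex I subunit, was at 511 and 314 CPM (0.70, 0.53 to 0.88), Cox8b at 79.9 and 49.1 (0.70, 0.25 to 1.17) and Uqcr10 of complex III at 634 and 406 (0.64, 0.49 to 0.80). Ttr was higher in the same direction, at 116589 and 55303 CPM. After subtraction by Ttr, 42.1% of the nuclear members were higher and Ndufa1 was at -0.21.

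**Figure D4:**
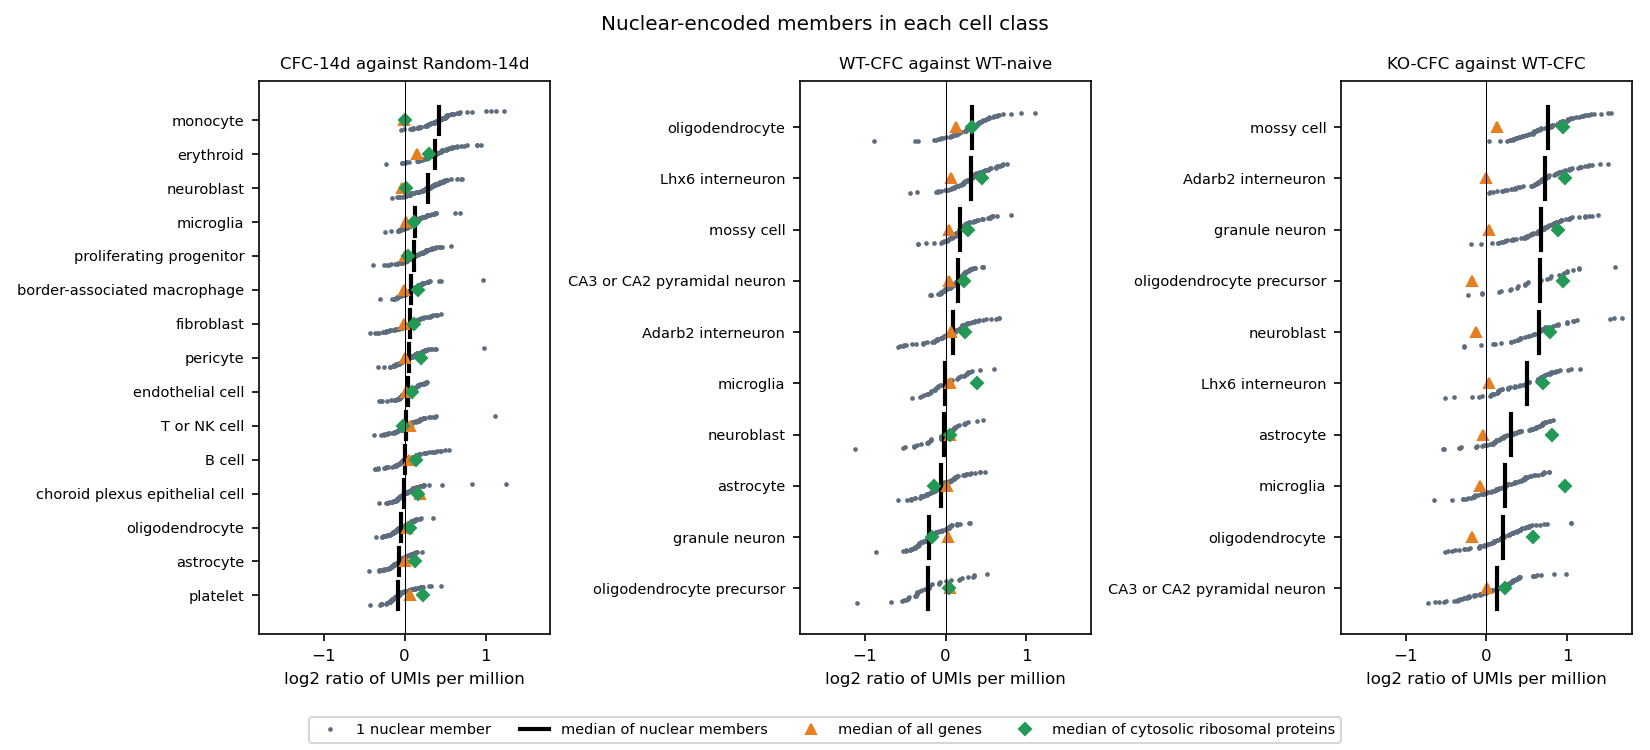
Log2 ratio of CPM for each nuclear member tested (grey points), with the medians of the nuclear members (line), of all genes (triangle) and of cytosolic ribosomal proteins (diamond), by class, for 3 comparisons. Nuclear medians run from -0.08 to 0.42 in CFC-14d against Random-14d, from -0.21 to 0.32 in WT-CFC against WT-naive and from 0.13 to 0.76 in KO-CFC against WT-CFC.

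The second comparison set trained wild-type mice against untrained ones, in nuclei. Nuclear members were lower in granule neurons and higher in oligodendrocytes, mossy cells and interneurons marked by Lhx6. The medians of the nuclear members were above 0 in 5 of 10 classes. In granule neurons 20 of 79 were higher in WT-CFC, and their median log2 ratio was -0.21 where all genes had 0.04 and the ribosomal proteins -0.17. The summed nuclear members were 4898 CPM in WT-CFC and 5679 in WT-naive (-0.21, -0.24 to -0.19). Cox4i1 was at 175 and 232 CPM (-0.41, -0.52 to -0.30), Cox8a at 228 and 309 (-0.44, -0.53 to -0.34) and Atp5mc1 at 55.8 and 78.3 (-0.49, -0.68 to -0.30). Among nuclear members only Ndufb4, a complex I subunit, was at least 1.5-fold apart, at 22.9 and 41.6 CPM (-0.86, -1.14 to -0.57), against 3.42% of all genes. The highest was Sdha, which carries the flavin of complex II, at 73.5 and 59.3 CPM (0.31, 0.11 to 0.50).

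Oligodendrocytes, the myelin-forming cells, went the other way. Of 64 nuclear members 55 were higher after training; their median was 0.32 where all genes had 0.13 and ribosomal proteins 0.33. The sum was 8386 and 6814 CPM (0.30, 0.25 to 0.35). At least 1.5-fold apart were 11 members, 10 higher and 1 lower, against 13.7% of all genes. Cox5b, a complex IV subunit, was at 94.7 and 43.6 CPM (1.11, 0.58 to 1.68), and Uqcrc2, a core protein of complex III, at 66.4 and 34.4 (0.93, 0.33 to 1.60). Ndufc1 was at 93.2 and 52.8 CPM (0.81, 0.32 to 1.34). Sdhb, the iron-sulfur subunit of complex II, was lower at 35.9 and 66.6 CPM (-0.89, -1.48 to -0.31), from 47 and 58 counts.

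Among the other neurons, mossy cells had 70 of 78 nuclear members higher (median 0.18, ribosomal proteins 0.28) and 3 at least 1.5-fold apart, against 5.82% of all genes: Ndufb7 at 19.7 and 11.2 CPM (0.81, 0.41 to 1.22), Atp5mc2 at 11.7 and 7.56 (0.63, 0.13 to 1.15) and Ndufb5 at 33.0 and 22.0 (0.58, 0.29 to 0.88). CA3 or CA2 neurons had 63 of 80 higher with all barcodes (median 0.15) and 0 at least 1.5-fold apart, against 4.57%. In astrocytes 28 of 75 were higher (median -0.06), with 1 at least 1.5-fold apart against 10.3% of all genes, Ndufv3 (-0.59). In microglia 18 of 36 were higher, with 1 at least 1.5-fold apart against 8.63%, Atp5f1a (0.60), the alpha subunit of ATP synthase.

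The medians of the copied and of the remaining mitochondrial genes differed. Of the copied genes, mt-Nd4l had only 113 counts in all of WT-naive and 111 in all of WT-CFC, so few classes could compare it. The median of the copied genes was below 0 in 10 of 10 classes, from -1.64 in astrocytes to -0.46 in oligodendrocytes, while that of the remaining 8 was above 0 in 6 of 10. In granule neurons mt-Co3 was at 23.1 CPM in WT-CFC and 78.0 in WT-naive (-1.76, -2.01 to -1.51) and mt-Atp6 at 49.8 and 143 (-1.52, -1.70 to -1.35). mt-Nd1 was at 286 and 336 CPM (-0.24, -0.32 to -0.15) and mt-Cytb at 436 and 502 (-0.20, -0.28 to -0.13).

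One copied gene, mt-Nd3, went against the median of the copied genes. mt-Nd3 was at 83.1 and 14.9 CPM in granule neurons (2.48, 2.16 to 2.82), 124 and 15.7 in mossy cells (2.98, 2.71 to 3.28) and 162 and 19.5 in oligodendrocytes (3.01, 2.34 to 3.86). It was higher in WT-CFC in 8 of 8 classes where it could be compared. The library labelled KO-CFC, also trained, had 37.8 CPM in granule neurons.

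Mossy cells were the class where the remaining mitochondrial genes moved most. All 8 were at least 1.5-fold higher in WT-CFC, where 5.82% of all genes were at least 1.5-fold apart. mt-Nd1 was at 470 and 309 CPM (0.60, 0.53 to 0.68), mt-Co1 at 163 and 90.5 (0.84, 0.71 to 0.98), mt-Cytb at 577 and 371 (0.64, 0.57 to 0.71) and mt-Atp8 of complex V at 55.7 and 25.9 (1.10, 0.85 to 1.36). The share of all mitochondrial members was 0.245% and 0.162%. The 2 mitochondrial ribosomal RNAs were higher too, with a median of 0.65.

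**Figure D5:**
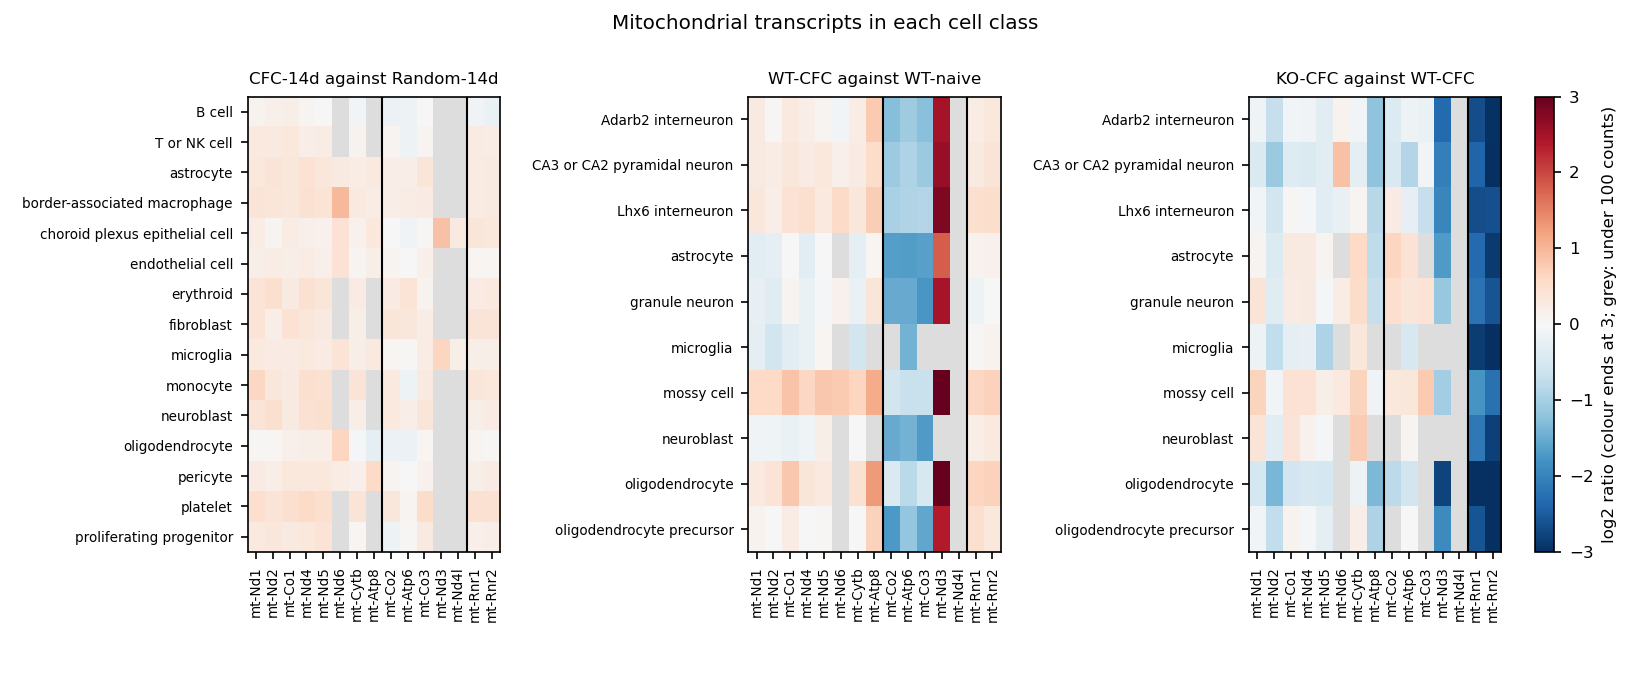
Log2 ratio of CPM (colour, ending at 3 in either direction) for each mitochondrial message and both ribosomal RNAs, by class, for 3 comparisons; vertical lines part the 8 remaining genes, the 5 copied genes and the ribosomal RNAs. In WT-CFC against WT-naive mt-Nd3 reaches 3.01 while mt-Co3 is at -1.76 in granule neurons, and in KO-CFC against WT-CFC the ribosomal RNA mt-Rnr2 is at -2.59 in granule neurons.

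The third comparison took 2 trained groups, WT-CFC and the one labelled KO-CFC. Nuclear members were higher in it in nearly every class and complex, and cytosolic ribosomal proteins were higher by more. The median of the nuclear members was above 0 in 10 of 10 classes, from 0.13 in CA3 or CA2 neurons to 0.76 in mossy cells, and that of the ribosomal proteins in 10 of 10, from 0.23 to 0.98. The CA3 or CA2 class held 163 nuclei of KO-CFC and 2022 of WT-CFC. In granule neurons the nuclear sum was 7874 CPM in KO-CFC and 4898 in WT-CFC (0.69, 0.67 to 0.70). Of 79 nuclear members 77 were higher, with a median of 0.68 against 0.03 for all genes. At least 1.5-fold higher were 49, against 15% of all genes, and 0 at least 1.5-fold lower, against 6.92%. The ribosomal proteins were higher in 77 of 77, with a median of 0.89.

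The complexes of granule neurons differed in degree. Of complex IV, 11 of the 12 genes with enough counts were at least 1.5-fold higher (median 0.89), of complex I 22 of 36 (0.66), of complex III 5 of 8 (0.73), of complex V 10 of 19 (0.63) and of complex II 1 of 4 (0.38). Cox5b was at 111 CPM in KO-CFC and 42.8 in WT-CFC (1.38, 1.19 to 1.56), Cox5a at 134 and 55.8 (1.26, 1.10 to 1.43) and Cox8a at 462 and 228 (1.02, 0.94 to 1.11). Atp5mc1 was at 138 and 55.8 CPM (1.31, 1.15 to 1.47), and Atp5if1, the inhibitor of ATP synthase run in reverse, at 180 and 88.2 (1.03, 0.90 to 1.16). Of complex I, Ndufb4 was at 53.5 and 22.9 CPM (1.22) and Ndufb8 at 105 and 45.1 (1.22). In complex II Sdhb was at 56.8 and 33.5 CPM (0.76, 0.54 to 0.99) and Sdha at 83.1 and 73.5 (0.18, 0.01 to 0.34). Of the paralogs, Cox6a1 (1.05), Cox6b1 (1.02), Atp5mc3 (0.93), Cox4i1 (0.91), Atp5mc2 (0.77), Cox7a2 (0.70) and Ndufa4 (0.63) were higher as well. Cox7a2l, which ties complexes III and IV together, was at 44.6 and 38.0 CPM (0.23), and Ndufs1, the largest complex I subunit, was lowest at 56.0 and 63.9 (-0.19, -0.38 to 0.00).

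Other mitochondrial lists of granule neurons were uneven. Of the mitochondrial ribosomal proteins 72 of 77 were higher (median 0.52), of the carriers and porins 7 of 8 (0.77), of the complex I assembly factors 13 of 16 (0.30) and of the complex IV assembly factors 14 of 20 (0.37). Genes of the citric acid cycle had 11 of 15 higher with a median of 0.07, and regulators of mitochondrial biogenesis 2 of 8 with -0.29. All these lists and the cytosolic ribosomal proteins are described by their counts alone.

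Depth and clustering moved with this difference. Median UMIs in granule neurons were 3505 in KO-CFC, 5060 in WT-CFC and 4439 in WT-naive. In granule nuclei of 2000 to 4000 UMIs the nuclear sums were 7966, 5973 and 6505 CPM, and 29.7% of members were at least 1.5-fold higher in KO-CFC than in WT-CFC, in place of 62.0%. The share of all genes in that window was 10.95%. Granule nuclei of KO-CFC lay mostly in cluster 4, which held 1653 of the 1745, and those of WT-CFC in cluster 2. The 92 KO-CFC nuclei in cluster 2 had a nuclear sum of 5860 CPM, against 4839 for WT-CFC there. The named mossy cells and interneurons came from clusters that all 3 libraries shared, but they differed in depth. Median UMIs in KO-CFC and WT-CFC were 8520 and 13699 in mossy cells, 4800.5 and 8385 in Adarb2 interneurons and 7034.5 and 10809 in Lhx6 interneurons. These classes had too few nuclei of 2000 to 4000 UMIs to be compared in that window. Unnamed cluster 25, whose best match was the mossy list with 3 markers, held 106 nuclei of KO-CFC and 0 of the others, with a nuclear sum of 7346 CPM. Unnamed cluster 6 held 1123 nuclei of KO-CFC, 8 of WT-CFC and 4 of WT-naive, with a nuclear sum of 4207 CPM in KO-CFC. Its best match was the neutrophil list with 1 marker. Kcnq5 and Gm70304 were among its leading genes, as Kcnq5 was in cluster 1 and Gm70304 in cluster 23, both named CA3 or CA2. Whether its nuclei belong to that class was not tested. The part of depth and of clustering in the difference was not tested further.

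Mossy cells had all 78 nuclear members higher, with a median of 0.76 against 0.13 for all genes. At least 1.5-fold higher were 52, against 19.9% of all genes, and 0 lower, against 5.69%. Atp5mc1 was at 139 and 47.6 CPM (1.55, 1.32 to 1.77) and Cox8a at 348 and 139 (1.33, 1.19 to 1.46), and the lowest was Atp5mj at 31.1 and 30.6 (0.03). Uqcrfs1 (1.51), Cox6b1 (1.42) and Cox6a1 (1.29) came between. All 12 complex IV genes tested were at least 1.5-fold higher there. Interneurons marked by Adarb2 had 70 of 70 higher (median 0.72, ribosomal proteins 0.97) and 52 at least 1.5-fold higher, against 12.6% of all genes, with 0 lower against 5.54%; Ndufb8 of complex I was at 97.7 and 34.5 CPM (1.5, 1.08 to 1.92), followed by Cox5a (1.41), Ndufb10 (1.31), Ndufb7 (1.27) and Atp5mc3 (1.26). Those marked by Lhx6 had 65 of 70 higher (median 0.50) and 30 at least 1.5-fold higher, against 12.1%, with 0 lower against 5.63%. Their largest ratio was that of the Atp5po entry ENSMUSG00000022956, at 61.7 and 27.6 CPM (1.16, 0.68 to 1.64), while the entry ENSMUSG00000116933 was at 197 and 188 (0.07). Atp5f1d (1.05), Ndufb11 (1.01), Cox5a (0.91) and Cox6a1 (0.88) followed it, and Ndufs1 was lowest (-0.51).

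With all barcodes, the members stood nearer to the background in glia. Astrocytes had 63 of 74 nuclear members higher (median 0.31) and 21 at least 1.5-fold higher, against 15.8% of all genes, with 0 lower against 14.5%. Cox4i1 was at 481 and 291 CPM (0.72, 0.55 to 0.90), and Ndufb5 had the largest ratio, at 119 and 67.2 (0.83, 0.47 to 1.19), before Uqcrfs1 (0.78), Atp5f1e (0.77), Ndufa1 (0.74) and Ndufb8 (0.73). Oligodendrocytes had 52 of 69 higher (median 0.21 where all genes had -0.18) and 6 at least 1.5-fold higher, against 10.7%, with 0 lower against 19.2%. Sdhb was at 74.5 and 35.9 CPM there (1.05, 0.49 to 1.63), as high as Ndufb8 (1.05), and Ndufs3 (0.75), Cox5a (0.71) and Ndufa8 (0.66) followed. Microglia had 51 of 70 higher (median 0.23) and 9 at least 1.5-fold higher, against 20% of all genes, with 1 lower against 19.6%, and the ribosomal proteins had a median of 0.98. Cox5b was at 157 and 90.6 CPM (0.78, 0.32 to 1.29) and Ndufs3 at 94.2 and 54.4 (0.77), and the lower gene was Atp5f1a, at 110 and 173 (-0.65, -1.04 to -0.25). The shares in oligodendrocytes and microglia lay below those of all genes. These glia came from different clusters in the libraries: of KO-CFC, 504 of 556 astrocytes lay in cluster 17, 376 of 418 oligodendrocytes in cluster 18 and 694 of 761 microglia in cluster 12. WT-CFC had 850 astrocytes in cluster 3, 661 oligodendrocytes in cluster 7 and 346 microglia in cluster 11.

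Mitochondrial messages did not go with the nuclear members. The median of the remaining mitochondrial genes was above 0 in 4 of 10 classes, from -0.52 in oligodendrocytes to 0.37 in mossy cells. In granule neurons mt-Cytb was at 637 CPM in KO-CFC and 436 in WT-CFC (0.55, 0.48 to 0.61), mt-Nd2 at 184 and 235 (-0.36, -0.46 to -0.25) and mt-Nd3 at 37.8 and 83.1 (-1.14, -1.34 to -0.93). The mitochondrial ribosomal RNAs differed most: mt-Rnr2 was at 505 and 3037 CPM (-2.59, -2.64 to -2.54), and in whole libraries both ribosomal RNAs together took 0.0597% of UMIs in KO-CFC against 0.383% in WT-CFC and 0.333% in WT-naive. There were 3.40 mitochondrial messages per ribosomal RNA molecule in KO-CFC, 0.560 in WT-CFC and 0.635 in WT-naive, and 1.03 in both cell libraries.

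The last comparison, KO-CFC against untrained WT-naive, joins training with whatever else sets the library labelled KO-CFC apart, Xist and Eif2s3y included, and shares its libraries with the others. In granule neurons 29 of 79 nuclear members were at least 1.5-fold higher in KO-CFC, against 14.3% of all genes, with a median of 0.49. In mossy cells 65 of 76 were, against 22.1%, with a median of 0.98. In oligodendrocytes 22 of 58 were, against 16.5%, with a median of 0.48, and in astrocytes 6 of 74, against 13.9%, with a median of 0.26. Cox5b was at 111 CPM in KO-CFC and 55.9 in WT-naive in granule neurons (0.99, 0.81 to 1.18), where WT-CFC had 42.8. It was at 135 and 43.6 CPM in oligodendrocytes (1.62, 1.09 to 2.20). Uqcrfs1 was at 30.7 and 9.58 CPM in mossy cells (1.68, 1.17 to 2.18) and at 61.8 and 33.0 in astrocytes (0.90, 0.37 to 1.45).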

How the data were processed

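The authors deposited UMI counts per gene and barcode for 5 libraries, as filtered matrices. Per the file headers they were made with Cell Ranger 8.0.1, which the submitters' processing notes name too, with Seurat 5.4.0 and GRCm39. The sources used here do not give the annotation that was counted against. Groups were taken from the labels.

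From the deposited counts, barcodes with at least 500 UMIs and 300 genes and at most 20% (cells) or 5% (nuclei) mitochondrial UMIs were kept, and the 8% with the highest doublet score were removed in each library, because the automatic threshold marked 0% in 3 libraries and 21.5% and 12.6% in the others. Kept barcodes numbered 28612, 26490, 9949, 12034 and 7790 in CFC-14d, Random-14d and the nuclei labelled naive, WT-CFC and KO-CFC. Each part was clustered apart on 2000 variable genes without the members, 30 components and 15 neighbours (Leiden 0.10.2, resolution 1; scikit-learn 1.9.0, Python 3.11.15) and named from marker lists. Unnamed clusters held 4.99% and 7.05% of cells and 25.7%, 42.9% and 35.2% of nuclei. Since clusters and names were rebuilt here, classes can differ from the authors'. Counts were summed by class and library. Levels need 50 barcodes and comparisons 100. Log2 ratios add 0.5 counts and carry exact conditional binomial intervals, levels exact Poisson and shares Clopper-Pearson ones; they were tested on simulated data. A count of 0 allows up to 3 counts. No p-value was computed. Copies were sought with blastn 2.17.0.

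Genes named are the highest and lowest members by ratio, up to 5 each way past 1.5-fold, the paralog pairs and the 10 most uneven members. The members and lists were chosen with earlier results of these data known, and the cytosolic ribosomal protein list after values were seen. Alternatives in filters, doublets, scaling, weighting and thresholds were run.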

Additional observations from a re-analysis of the deposited data

Results flagged for a closer look

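In trained against untrained wild-type nuclei, the summed nuclear members went in opposite directions in 2 classes: the log2 ratio was -0.21 in granule neurons and 0.30 in oligodendrocytes. With 1 library per group, the difference between them was not tested.

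In 2 clusters of nuclei that no marker list named, these genes took a larger share of the UMIs than in any named class of nuclei. Unnamed cluster 0 of the nuclei had a nuclear sum of 21525 CPM in its 4592 nuclei of WT-CFC and 19454 in its 1502 of WT-naive, and its leading genes were Mir6236, Cmss1, Ywhah, Lars2 and Calb2. Unnamed cluster 8 had 23845 CPM in 1042 nuclei of the library labelled KO-CFC, with Ighg2b, Ighg2c, Gal, Scg2 and C1ql2 among its leading genes. Their median UMIs were 0.278 and 0.213 of those of their libraries. The other unnamed clusters of nuclei, where they had at least 20 in a library, were at 2452 to 7654 CPM. Unnamed clusters entered no comparison.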

How the results depend on the processing

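For 43 results, recomputed under 14 other settings and 3 more chosen after seeing the data (a choroid plexus class without clusters 2 and 28, choroid RNA taken out in proportion to Ttr, and barcodes of 2000 to 4000 UMIs), 580 values stayed within 1.5 times the reported one and 43 did not. The share of nuclear members higher in CFC-14d was 47.06% in choroid plexus epithelium, and 12.94% when scaled by the median ratio, 5.882% with barcodes weighted equally and 3.75% at 2000 to 4000 UMIs. For its remaining mitochondrial genes it was 50% when scaled by the median ratio. At 2000 to 4000 UMIs it was 52.44% in microglia and 57.33% in astrocytes. It was 70% in astrocytes under the stricter mitochondrial limit, 92.59% in endothelium with no doublets removed and 42.11% in neuroblasts after subtraction by Ttr. For WT-CFC against WT-naive it was 16.46% in granule neurons with 15% removed as doublets, 64.41% in astrocytes at 2000 to 4000 UMIs and 31.25% in microglia at 1000 UMIs and 500 genes. The share at least 1.5-fold higher in KO-CFC than in WT-CFC was 29.73% in granule neurons at 2000 to 4000 UMIs, and 17.65% (minimum 300 counts) and 48.65% (lower fold threshold) in astrocytes. In oligodendrocytes it was 3.175% (1000 UMIs), 13.64% (15% doublets), 13.24% (no doublets removed), 26.09% (median ratio), 0% (minimum 300 counts) and 34.78% (lower fold threshold). In microglia it was 31.58% (1000 UMIs), 5.714% (stricter mitochondrial limit), 20.27% (no such limit), 33.33% (15% doublets), 6.944% (members among the variable genes), 4.762% (minimum 300 counts) and 41.43% (lower fold threshold). Against WT-naive it was 63.29% (stricter mitochondrial limit), 24.05% (median ratio), 75.95% (lower fold threshold) and 17.33% (2000 to 4000 UMIs) in granule neurons. In astrocytes it was 29.73% (1000 UMIs), 44.59% (stricter limit), 40.54% (no limit), 16.67% (15% doublets), 14.86% (equal weights), 12.35% (minimum 20 counts), 0% (minimum 300 counts), 41.89% (lower fold threshold) and 30% (2000 to 4000 UMIs). In oligodendrocytes it was 70.69% (lower fold threshold). At 2000 to 4000 UMIs the nuclear sum was higher in KO-CFC in 5 of 5 classes left, where it had been higher in 11. For 132 values of single genes, 1681 recomputed values stayed within the counting interval, 123 left it, and 3 ratios past 1.5-fold reversed: Cox4i2 (-0.33) and Ndufa4l2 (-0.03006) in choroid plexus epithelium without the 2 clusters, and Ndufa1 (-0.21) in neuroblasts after subtraction by Ttr. Genes under the count minimum of a setting were not recomputed in it, among them Cox8b in pericytes and neuroblasts after that subtraction. Where a stricter count minimum is named, fewer genes were compared, and for the others the cause was not tested. No paired analysis was possible because each group had 1 library, and no library could be left out. Depth limits genes under 100 counts, and the intervals hold no spread between mice.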

Other observations

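Lars2, the mitochondrial leucyl-tRNA synthetase, was at 193 and 172 CPM in CFC-14d and Random-14d and at 1070, 915 and 401 in WT-naive, WT-CFC and KO-CFC. Mir6236 was at 106 and 73.1 CPM in the cells and at 47.6, 139 and 27.4 in the nuclei. The 22 mitochondrial transfer RNA genes together gave 824 and 658 UMIs in CFC-14d and Random-14d and 549, 593 and 135 in the nuclei of WT-naive, WT-CFC and KO-CFC.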
